A study of Rattus norvegicus with 30 samples.

Results

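Complement and coagulation factors are plasma proteins, most of them made chiefly by hepatocytes. The group described here consists of 39 listed genes, 19 of complement and 20 of coagulation and fibrinolysis. It was read through the array's probe sets that the platform annotation gives to 1 of these genes alone, by current or older symbol. Of the 39 genes, 32 had such probe sets (16 of complement and 16 of coagulation), out of 14217 genes with a probe set of their own on the array. They held 38 of its 31042 probe sets that are not controls. All 32 genes and 36 of the 38 probe sets passed the filter on dim signal; the exceptions were 1 probe set each of Fgb and Masp1, both genes with a brighter one that passed. Fgb and Masp1 had 3 probe sets each, Fga and Mbl2 had 2 each, and the other genes had 1. The remaining 7 genes have no value here. C2 and Cfb share their 4 probe sets, C4a shares its single one with C4b, Kng1 shares its own with the other kininogens, and F7, F11 and F13b matched no probe set.

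The cells were primary hepatocytes of male Sprague Dawley rats, bought frozen, kept on collagen with Matrigel laid over them and first dosed on culture day 3. Diisononyl phthalate (DINP), a plasticiser, was given at 25 or 100 mM, as the labels write the unit, which could not be checked, and the controls received 1% DMSO. RNA was taken after 24 or 48 h, so that each time has a vehicle group, a 25 mM and a 100 mM group, 6 in all with 5 arrays each. The labels describe the 5 wells of a group as separate cultures but give no donor animals, and p-values here speak of the spread from well to well. The cultures hold no plasma, so transcripts were measured, not circulating protein. The study's comparisons are of each dose with the vehicle. Both doses of a time were compared with the same 5 vehicle arrays, so their results are not independent of each other.

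As background, complement is a cascade of proteases and pore proteins that tags and lyses microbes. The C1r and C1s proteases or the mannose-binding lectins with the Masp proteases start it, C3 and C5 are its hubs, and C6, C8 and C9 belong to the membrane pore. Coagulation is a second protease cascade, in which vitamin K-dependent factors such as F9, F10 and prothrombin (F2), helped by the cofactor F5, lead to the cleavage of fibrinogen into fibrin. Antithrombin (Serpinc1), heparin cofactor II (Serpind1) and proteins C and S restrain it and plasmin dissolves the clot. Hepatocytes switch many of these genes through liver-enriched factors such as HNF1, HNF4 and the C/EBP proteins, and several are acute phase genes that respond to interleukin-6.

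Values are MAS5 signals, given as log2(signal + 16), and differences are log2 differences ± the standard error of limma's fit, 5 arrays against 5, with Benjamini-Hochberg adjustment over the 18625 probe sets tested. A gene is called higher or lower where its adjusted p lies under 0.05, and each gene is represented by its brightest tested probe set. Replicate numbers follow the order of deposition and only name an array. The exposure was visible in the peroxisome proliferator response: the ω-hydroxylase Cyp4a1 differed from the vehicle by 2.59 ± 0.11 to 2.38 ± 0.11 over the 4 comparisons from 25 mM and 24 h to 100 mM and 48 h, and the bifunctional enzyme Ehhadh by 3.05 ± 0.10 to 2.65 ± 0.10. Of 10 hepatocyte markers, 9 had a probe set of their own and all 9 passed the filter. Of 12 markers of Kupffer cells, the liver's macrophages, 10 were matched and 7 passed, and Cd163, Adgre1 and Ptprc did not. Of the markers of stellate, endothelial, bile duct and lymphoid cells, 6 of 10, 5 of 8, 2 of 5 and 2 of 6 matched genes passed. No 2 arrays held identical values.

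In the treated cultures members moved in both directions. The cofactor gene F5, the complement starters C1r and C1s, the pore protein gene C9 and heparin cofactor II were lower at both doses and both times, and the kallikrein gene Klkb1 was lower at 24 h. Higher were F2, F10, Mbl1, Cfd, C8b, C8g and C4bpa, most of them only past the threshold at 48 h. Called differences on the brightest probe set of each gene were between -0.76 (F5) and 0.80 (Cfd), a fold of 1.70 lower and 1.74 higher. A dim second probe set of Fgb was called at -1.12 with 100 mM for 48 h. On their brightest probe sets, 8 of the 32 members were called higher in at least 1 of the 4 comparisons with the vehicle. Another 11 were called lower in at least 1, and 13 in none. The 13 include Fga, whose dimmer probe set was called lower in all 4. Shares of all genes were counted for each comparison alone and follow below. They were not matched to the members, other pathway genes or regulators for signal level. The members were bright: on vehicle 24 h replicate 1 their mean log2 signal was 13.71, and the array's median was 8.77. Smaller differences can be called where the standard error is smaller, and it was 0.05 for F2 and 0.18 for the dimmest member, Cfd. How far signal level bears on shares called or without overlap was not tested. No member was called in both directions. Those called lower in all 4 were C1r, C1s, C9, F5 and Serpind1, and F2 was called higher in all 4. In bulk RNA, fewer cells of a type and less RNA per cell cannot be told apart.

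With 25 mM for 24 h, 2 members were higher and 6 lower (6.25% and 18.8% of the 32), against 7.87% and 7.84% of all 10604 genes tested. The members' median difference was -0.06 against -0.02 for all genes. Quantile normalisation gave 0 higher and 10 lower (15.5% of all genes in either direction). Centring each array on its median gave 1 and 3 (13.1% of all genes). After quantile normalisation and median centring the members' medians were -0.12 and 0.01, against 0.01 and 0.05 for all genes. Under the deposited scaling the share of members called higher was close to that of all genes and the share called lower above it. With 100 mM for 24 h, 1 member was higher and 7 lower (3.12% and 21.9% of the 32), against 7.54% and 7.02% of all 10604 genes tested. The members' median difference was -0.08 against -0.03 for all genes. Quantile normalisation gave 1 higher and 10 lower (13.9% of all genes in either direction). Centring each array on its median gave 1 and 4 (12.3% of all genes). The members' medians under these scalings were -0.13 and 0.001, against 0.01 and 0.05 for all genes. At 24 h, then, the members' calls ran mostly downwards under each of these scalings, though how many depended on the scaling. For quantile normalisation and median centring, here and below, the shares of all genes were not split by direction. Under them the members' directions thus cannot be set against those of all genes.

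With 25 mM for 48 h, 8 members were higher and 6 lower (25.0% and 18.8% of the 32), against 9.78% and 12.1% of all 10604 genes tested. The members' median difference was -0.04 against -0.03 for all genes. Quantile normalisation gave 7 higher and 11 lower (21.4% of all genes in either direction). Centring each array on its median gave 7 and 5 (17.7% of all genes). After quantile normalisation and median centring the members' medians were -0.10 and -0.04, against -0.01 and -0.03 for all genes. At this time the members were called both ways. With 100 mM for 48 h, 7 members were higher and 8 lower (21.9% and 25.0% of the 32), against 8.69% and 9.20% of all 10604 genes tested. The members' median difference was -0.05 against -0.06 for all genes. Quantile normalisation gave 6 higher and 13 lower (16.3% of all genes in either direction). Centring each array on its median gave 8 and 3 (15.6% of all genes). The members' medians under these scalings were -0.14 and 0.05, against -0.01 and 0.04 for all genes. Median centring moved the median of all genes in this last comparison from -0.06 to 0.04, and of the 8 members called lower it left 3. Treated and vehicle arrays did not overlap for 6, 9, 12 and 12 of the 32 members in these 4 comparisons, in the order given, against 13.5%, 13.7%, 13.6% and 13.2% of all genes. The plot of differences by role shows these patterns gene by gene.

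**Figure D1:**
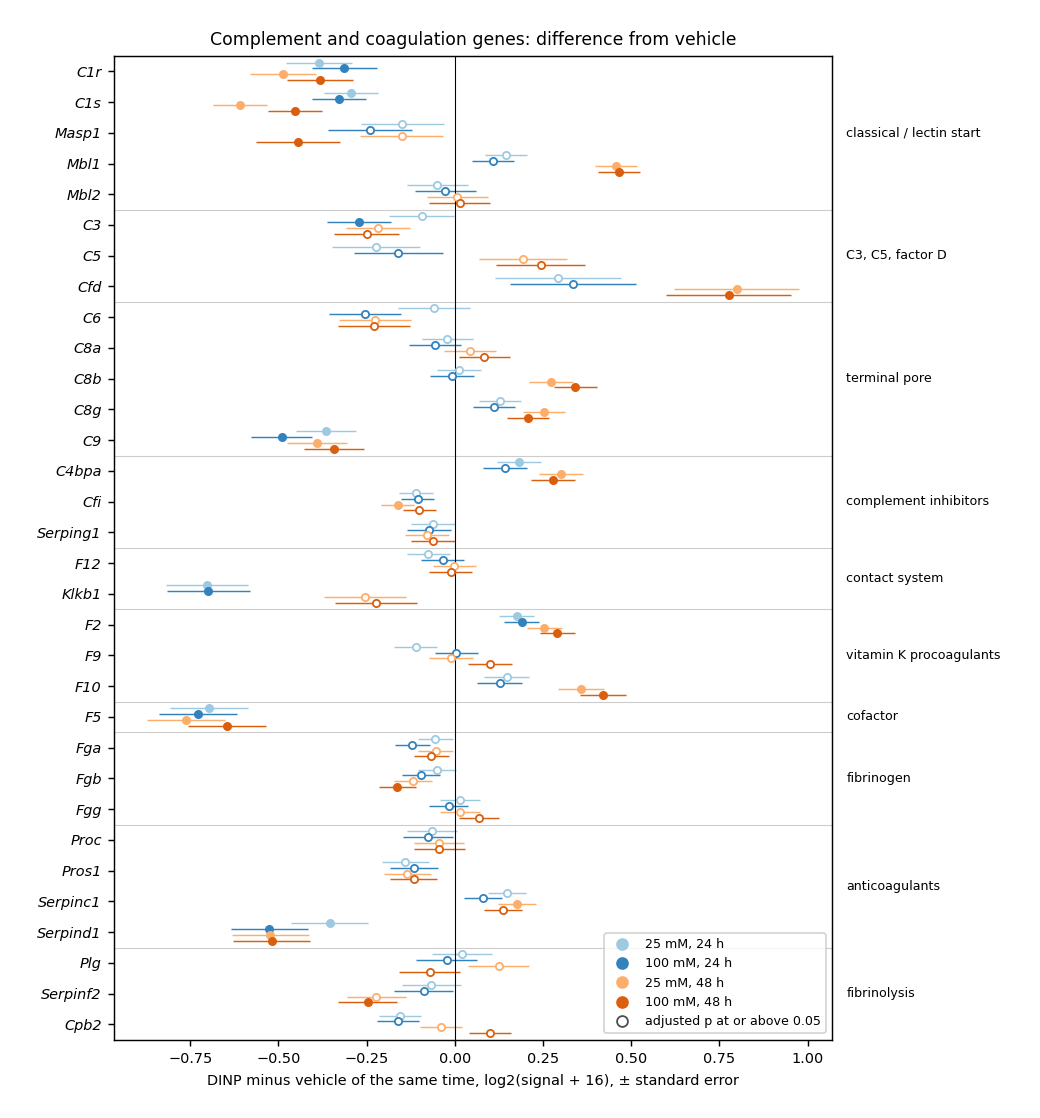
Log2 difference from the vehicle of the same time (x axis) for the 32 measured genes, ordered by role, with limma's standard error as bars and a colour for each dose and time. Filled points have an adjusted p under 0.05. F5, C1r, C1s, C9 and Serpind1 lie left of 0 in all 4 comparisons, Klkb1 mainly at 24 h, and F2, F10, Mbl1, Cfd and C8b lie to the right at 48 h.

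Because members that share a cascade moved in different directions, the 250 bases before each RefSeq gene start (rat assembly GRCr8) were searched on both strands for short letter patterns of liver and acute phase factors. The windows below are those of the 3 members with the largest called falls, then of the 3 with the largest called rises, among genes with a window, and of the fibrinogen neighbours Fga and Fgb. Falls and rises are those of the brightest probe sets. Capitals mark every match.
F5 (chr13:79046407-79046656, plus strand): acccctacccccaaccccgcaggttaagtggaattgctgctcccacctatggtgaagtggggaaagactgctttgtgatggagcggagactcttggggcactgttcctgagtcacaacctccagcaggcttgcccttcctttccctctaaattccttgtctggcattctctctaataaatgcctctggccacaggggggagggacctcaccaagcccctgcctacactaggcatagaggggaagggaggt
Klkb1 (chr16:53690976-53691225, plus strand): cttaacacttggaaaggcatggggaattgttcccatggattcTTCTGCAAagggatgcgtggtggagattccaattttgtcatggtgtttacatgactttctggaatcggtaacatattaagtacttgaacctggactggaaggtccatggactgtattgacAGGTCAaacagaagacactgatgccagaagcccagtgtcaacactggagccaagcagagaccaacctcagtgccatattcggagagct
C1r (chr4:159098763-159099012, plus strand): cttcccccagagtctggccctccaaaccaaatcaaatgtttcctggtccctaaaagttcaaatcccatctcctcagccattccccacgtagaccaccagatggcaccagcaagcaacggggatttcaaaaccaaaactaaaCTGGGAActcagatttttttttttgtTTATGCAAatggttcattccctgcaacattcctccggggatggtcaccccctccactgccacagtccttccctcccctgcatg
Cfd (chr7:10465497-10465746, minus strand): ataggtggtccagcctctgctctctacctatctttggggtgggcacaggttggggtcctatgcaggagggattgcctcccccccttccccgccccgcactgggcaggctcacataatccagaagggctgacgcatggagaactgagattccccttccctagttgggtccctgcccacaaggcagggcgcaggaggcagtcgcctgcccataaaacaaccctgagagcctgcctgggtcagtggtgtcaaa
Mbl1 (chr16:17062982-17063231, plus strand): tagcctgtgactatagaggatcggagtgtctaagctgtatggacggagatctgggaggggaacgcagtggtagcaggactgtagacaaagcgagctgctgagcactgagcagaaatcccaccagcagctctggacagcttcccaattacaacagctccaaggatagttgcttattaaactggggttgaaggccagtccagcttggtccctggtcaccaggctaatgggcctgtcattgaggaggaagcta
F10 (chr16:83190281-83190530, minus strand): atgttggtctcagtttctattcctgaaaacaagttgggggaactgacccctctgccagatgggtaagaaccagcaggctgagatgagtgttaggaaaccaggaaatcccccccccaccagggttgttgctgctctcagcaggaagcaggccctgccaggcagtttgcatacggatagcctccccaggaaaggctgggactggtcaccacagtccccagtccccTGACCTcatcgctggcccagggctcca
Fga (chr2:170671919-170672168, plus strand): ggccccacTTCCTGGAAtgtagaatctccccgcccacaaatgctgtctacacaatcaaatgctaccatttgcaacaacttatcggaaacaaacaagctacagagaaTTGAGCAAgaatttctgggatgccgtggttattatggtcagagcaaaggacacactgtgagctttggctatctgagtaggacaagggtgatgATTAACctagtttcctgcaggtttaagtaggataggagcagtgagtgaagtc
Fgb (chr2:170700876-170701125, minus strand): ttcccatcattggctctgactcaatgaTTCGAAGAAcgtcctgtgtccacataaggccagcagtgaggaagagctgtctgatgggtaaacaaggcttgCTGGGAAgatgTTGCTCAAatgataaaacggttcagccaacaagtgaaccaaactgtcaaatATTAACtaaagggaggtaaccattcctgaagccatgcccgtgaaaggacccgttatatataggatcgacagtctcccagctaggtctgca

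RefSeq windows were at hand for 26 of the 32 measured genes, those of C1s, C8g, C9, Cpb2, Serpind1 and Serping1 missing. The C/EBP pattern was TTGCNNAA, in 11 of 26 member windows (42.3%) and 9.2% of all 27457. The HNF1 core was GTTAAT, in 8 of 26 member windows (30.8%) and 6.46% of all 27457. The STAT pattern was TTCNNNGAA, in 5 of 26 member windows (19.2%) and 7.52% of all 27457. The interleukin-6 type II element was CTGGGAA, in 7 of 26 member windows (26.9%) and 9.33% of all 27457. The nuclear receptor core was AGGTCA, in 10 of 26 member windows (38.5%) and 13.7% of all 27457. The HNF4 pattern was CAAAGTCCA, in 0 of 26 member windows (0%) and 0.331% of all 27457. The median GC content was 48.8% in member windows and 52% in all, and the shares were not adjusted for it. In the printed windows, F5, Cfd and Mbl1 held none of these patterns. Klkb1 and C1r each held the C/EBP pattern, Klkb1 with a nuclear receptor core and C1r with the interleukin-6 element. F10 held a nuclear receptor core alone, overlapping no other match. Fga and Fgb each held the C/EBP, HNF1 and STAT patterns, and Fgb the interleukin-6 element as well. A match says only that the letters are there.

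Among the starters of the classical and lectin pathways, 5 of 7 genes were measured. The proteases C1r and C1s, which lie next to each other in the RefSeq gene order and together form the catalytic part of the C1 complex, were both lower at each dose and time. The lectin Mbl1 was higher at 48 h. C1s (probe set 1387893_at) had log2 signals of 13.01, 13.19, 13.32, 13.06 and 13.23 in the 24 h vehicle cultures, 12.82, 12.82, 12.69, 12.88 and 13.14 at 25 mM and 12.72, 12.82, 12.93, 12.87 and 12.83 at 100 mM. After 48 h C1s stood at 13.01, 13.08, 12.93, 13.22 and 13.25 in the vehicle cultures, 12.44, 12.70, 12.43, 12.52 and 12.35 at 25 mM and 12.63, 12.70, 12.54, 12.74 and 12.62 at 100 mM. All 10 treated arrays at 48 h lay below all 5 vehicle arrays, while at 24 h 1 array at 25 mM overlapped the vehicle and those at 100 mM did not. C1s was 1.53-fold lower at 25 mM and 48 h (-0.61 ± 0.08, adjusted p = 2.67e-07) and 1.37-fold lower at 100 mM (-0.45 ± 0.08, adjusted p = 4.99e-05). At 24 h its differences were -0.29 ± 0.08 (adjusted p = 0.00739) and -0.33 ± 0.08 (adjusted p = 0.00289), and these 2 calls were lost after median centring (-0.22 and -0.25).

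C1r (probe set 1383241_at) had log2 signals of 12.45, 12.39, 12.31, 12.39 and 12.30 in the 24 h vehicle cultures, 11.92, 12.09, 12.24, 11.99 and 11.69 at 25 mM and 12.06, 11.99, 12.02, 12.28 and 11.93 at 100 mM. After 48 h C1r stood at 12.31, 12.04, 11.94, 12.17 and 12.28 in the vehicle cultures, 11.78, 11.81, 11.77, 11.60 and 11.35 at 25 mM and 11.79, 11.84, 11.58, 11.86 and 11.76 at 100 mM. In every one of the 4 comparisons the treated arrays of C1r lay below the vehicle arrays without overlap. It fell by 0.38 ± 0.09 at 25 mM and 24 h (adjusted p = 0.00377), by 0.31 ± 0.09 at 100 mM and 24 h (adjusted p = 0.0222), by 0.49 ± 0.09 at 25 mM and 48 h (adjusted p = 0.000208) and by 0.38 ± 0.09 at 100 mM and 48 h (adjusted p = 0.00382). The call at 100 mM and 24 h was lost without vehicle replicate 1 (-0.29) or DINP replicate 5 (-0.28), adjusted p from 0.0553 to 0.0651. Both calls at 100 mM were lost after median centring.

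Mbl1, a mannose-binding lectin that recognises microbial sugars, moved the other way. Mbl1 (probe set 1387765_at) had log2 signals of 11.82, 11.82, 11.96, 11.76 and 11.94 in the 24 h vehicle cultures, 11.92, 12.12, 12.07, 11.9998 and 11.91 at 25 mM and 12.002, 11.98, 12.01, 11.94 and 11.89 at 100 mM. After 48 h Mbl1 stood at 11.84, 11.66, 11.63, 11.58 and 11.76 in the vehicle cultures, 12.18, 12.05, 12.15, 12.21 and 12.16 at 25 mM and 12.18, 12.07, 12.14, 12.27 and 12.13 at 100 mM. At 48 h the treated arrays all lay above the vehicle, and at 24 h the groups overlapped. Mbl1 rose 1.37-fold at 25 mM (0.46 ± 0.06, adjusted p = 5.38e-07) and 1.38-fold at 100 mM (0.46 ± 0.06, adjusted p = 5.24e-07) after 48 h. Its 24 h differences of 0.14 ± 0.06 and 0.11 ± 0.06 did not pass (adjusted p = 0.112 and 0.271). The second lectin gene, Mbl2, differed by -0.05 to 0.01 on its brighter probe set and by 0.05 to 0.12 on the other, none of them called. The lectin-pathway protease gene Masp1 was called only at 100 mM and 48 h (-0.44 ± 0.12, adjusted p = 0.00861), with its other tested probe set at -0.33 ± 0.15 and not called, and the call was lost after median centring (adjusted p = 0.0584).

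Of the hubs and the alternative pathway, C3, C5 and factor D (Cfd) were measured. Cfd, the protease that cleaves factor B, had the largest rise of any member. Cfd (probe set 1388602_at) had log2 signals of 8.86, 8.65, 8.58, 8.32 and 7.88 in the 24 h vehicle cultures, 8.52, 9.35, 8.37, 8.98 and 8.53 at 25 mM and 8.75, 8.43, 8.98, 9.02 and 8.78 at 100 mM. After 48 h Cfd stood at 8.38, 8.58, 8.22, 8.36 and 8.24 in the vehicle cultures, 9.23, 9.13, 9.17, 9.09 and 9.14 at 25 mM and 9.20, 9.23, 9.31, 8.95 and 8.97 at 100 mM. The 48 h vehicle arrays all lay below the treated ones, and at 24 h the spread within groups was wide and the groups overlapped. Cfd rose by 0.80 ± 0.18 at 25 mM and 48 h (adjusted p = 0.00133) and by 0.78 ± 0.18 at 100 mM and 48 h (adjusted p = 0.0022), against 0.29 ± 0.18 and 0.33 ± 0.18 at 24 h (adjusted p = 0.33 and 0.249). It is the dimmest member tested, with a mean of 8.77 where the dimmest probe set tested lay at 7.96. C3, the central protein of the cascade, differed by -0.09 ± 0.09, -0.27 ± 0.09, -0.22 ± 0.09 and -0.25 ± 0.09 in the same order of comparisons, and only the difference at 100 mM and 24 h was called under the main setting (adjusted p = 0.0467). That call was lost without vehicle replicates 2 (-0.28), 3 (-0.27), 4 (-0.25) or 5 (-0.25) or DINP replicates 1 (-0.25), 2 (-0.26), 3 (-0.28) or 5 (-0.27), adjusted p from 0.0675 to 0.118, and after median centring. The call of C3 at 100 mM and 24 h also ended with no filter, no variance trend or the round of array numbers as a block. At 48 h quantile normalisation called C3 lower at both doses (-0.30, adjusted p = 0.0167, and -0.35, adjusted p = 0.0052). At 100 mM and 48 h so did the 60th percentile filter (-0.25), array weights (-0.25) and fits without single arrays (vehicle replicate 1 at -0.29, vehicle replicate 2 at -0.32), and at 25 mM and 48 h fits without single arrays (DINP replicate 1 at -0.27, vehicle replicate 2 at -0.28). C5, the precursor of the pore-starting fragment, lay at -0.22 ± 0.13 and -0.16 ± 0.13 at 24 h and at 0.19 ± 0.13 and 0.24 ± 0.13 at 48 h, with no call.

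The terminal pore genes did not move together. C9, whose product polymerises into the pore, was lower in every comparison, C8b and C8g, encoding the β and γ chains of C8, were higher at 48 h. C8a and C6 were not called. C9 (probe set 1368741_at) had log2 signals of 12.89, 13.06, 13.16, 12.97 and 12.88 in the 24 h vehicle cultures, 12.53, 12.62, 12.65, 12.62 and 12.70 at 25 mM and 12.31, 12.53, 12.63, 12.62 and 12.40 at 100 mM. After 48 h C9 stood at 11.50, 11.34, 11.46, 11.56 and 11.34 in the vehicle cultures, 11.19, 10.80, 10.96, 10.998 and 11.29 at 25 mM and 11.003, 11.34, 11.01, 10.94 and 11.19 at 100 mM. The arrays of the treated and vehicle groups were separate except at 100 mM and 48 h, where the highest treated value lay just above the lowest vehicle value. The differences of C9 were -0.37 ± 0.09 (adjusted p = 0.0028), -0.49 ± 0.09 (adjusted p = 9.63e-05), -0.39 ± 0.09 (adjusted p = 0.00109) and -0.34 ± 0.09 (adjusted p = 0.0048), of which the first and the last were lost after median centring.

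C8b (probe set 1371109_at) had log2 signals of 13.23, 13.34, 13.42, 13.23 and 13.47 in the 24 h vehicle cultures, 13.30, 13.35, 13.28, 13.29 and 13.52 at 25 mM and 13.27, 13.26, 13.42, 13.34 and 13.36 at 100 mM. After 48 h C8b stood at 12.75, 12.73, 12.75, 12.99 and 12.93 in the vehicle cultures, 13.19, 13.05, 13.07, 13.19 and 13.02 at 25 mM and 13.15, 13.26, 13.16, 13.24 and 13.05 at 100 mM. At 24 h the 3 groups lay over each other, and at 48 h every treated array lay above every vehicle array. C8b rose by 0.27 ± 0.06 at 25 mM (adjusted p = 0.00162) and by 0.34 ± 0.06 at 100 mM (adjusted p = 0.000138). C8g rose by 0.25 ± 0.06 (adjusted p = 0.00232) and 0.21 ± 0.06 (adjusted p = 0.0157), the latter lost after quantile normalisation (0.11). C8g was also called at 25 mM and 24 h (0.13 ± 0.06) without vehicle replicate 2 (0.18). C8a, the neighbour of C8b in the RefSeq gene order, lay between -0.06 and 0.08 in the 4 comparisons, and C6 between -0.26 and -0.06. C6 was called lower at 48 h without vehicle replicate 4 (-0.31 at 25 mM and -0.31 at 100 mM) and, at 25 mM, without DINP replicate 5 (-0.30).

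Of the 3 complement inhibitors, C4bpa, the α chain of the C4b-binding protein, was higher. C4bpa (probe set 1369764_at) had log2 signals of 13.25, 13.29, 13.35, 13.15 and 13.41 in the 24 h vehicle cultures, 13.34, 13.49, 13.49, 13.55 and 13.49 at 25 mM and 13.33, 13.45, 13.27, 13.54 and 13.56 at 100 mM. After 48 h C4bpa stood at 13.19, 13.02, 12.97, 13.19 and 13.11 in the vehicle cultures, 13.44, 13.25, 13.44, 13.42 and 13.43 at 25 mM and 13.33, 13.33, 13.29, 13.42 and 13.48 at 100 mM. The 48 h groups did not overlap, although replicate 2 at 25 mM lay apart from the other 4 and close to the vehicle, and the 24 h groups overlapped. C4bpa rose by 0.30 ± 0.06 at 25 mM (adjusted p = 0.000544) and 0.28 ± 0.06 at 100 mM (adjusted p = 0.0016) after 48 h. At 25 mM and 24 h the call (0.18 ± 0.06, adjusted p = 0.0467) was lost without vehicle replicates 1 (0.17), 2 (0.18) or 4 (0.15) or DINP replicates 2 (0.18), 3 (0.18), 4 (0.16) or 5 (0.18), adjusted p from 0.0741 to 0.161, and under both other scalings. No filter, no variance trend or a fit of only the compared groups ended that call too. At 100 mM and 24 h C4bpa was not called (0.14 ± 0.06). Factor I (Cfi), the protease that degrades C3b and C4b, was called lower at 25 mM and 48 h (-0.16 ± 0.05, adjusted p = 0.0136), which did not pass without vehicle replicates 4 (-0.14) or 5 (-0.13), adjusted p from 0.0562 to 0.0575, or after median centring. A fit of only the compared groups ended the call of Cfi as well. The C1 inhibitor gene Serping1 lay between -0.08 and -0.06 and was not called. After quantile normalisation Cfi was lower in the other 3 comparisons too (-0.17, -0.18 and -0.22) and Serping1 at 48 h (-0.16 and -0.17).

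On the brightest probe sets the largest falls in the coagulation cascade were those of F5 and Klkb1. F5 encodes factor V, the cofactor with which factor Xa activates prothrombin. F5 (probe set 1374320_at) had log2 signals of 12.69, 12.67, 12.67, 12.63 and 12.68 in the 24 h vehicle cultures, 12.20, 12.05, 11.78, 11.69 and 12.13 at 25 mM and 12.17, 11.94, 11.91, 11.76 and 11.91 at 100 mM. After 48 h F5 stood at 11.93, 12.16, 12.40, 12.34 and 11.98 in the vehicle cultures, 11.62, 11.64, 11.25, 11.53 and 10.95 at 25 mM and 11.54, 11.52, 11.53, 11.41 and 11.58 at 100 mM. At each time every treated array lay below every vehicle array. F5 was 1.62-fold lower at 25 mM and 24 h (-0.70 ± 0.11, adjusted p = 2.07e-05), 1.66-fold at 100 mM and 24 h (-0.73 ± 0.11, adjusted p = 1.19e-05), 1.70-fold at 25 mM and 48 h (-0.76 ± 0.11, adjusted p = 3.53e-06) and 1.56-fold at 100 mM and 48 h (-0.64 ± 0.11, adjusted p = 6.08e-05). All 4 calls were kept under each alternative run.

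Klkb1 encodes plasma prekallikrein, which with factor XII and kininogen makes up the contact system. Klkb1 (probe set 1387323_at) had log2 signals of 12.50, 12.17, 12.40, 12.31 and 12.31 in the 24 h vehicle cultures, 11.92, 11.76, 11.34, 11.58 and 11.58 at 25 mM and 11.69, 11.74, 11.93, 11.23 and 11.61 at 100 mM. After 48 h Klkb1 stood at 11.50, 11.85, 11.86, 11.80 and 11.60 in the vehicle cultures, 11.18, 11.61, 11.29, 11.82 and 11.42 at 25 mM and 11.33, 11.46, 11.49, 11.62 and 11.58 at 100 mM. At 24 h the treated arrays all lay below the vehicle arrays, and at 48 h, where the vehicle itself was lower than at 24 h, the groups overlapped. Klkb1 fell by 0.70 ± 0.12 (adjusted p = 4.22e-05) at 25 mM and 0.70 ± 0.12 (adjusted p = 5.42e-05) at 100 mM after 24 h, against -0.26 ± 0.12 (adjusted p = 0.141) and -0.22 ± 0.12 (adjusted p = 0.22) after 48 h. The difference between the times was 0.45 ± 0.17 at 25 mM (95% interval 0.11 to 0.78, adjusted p = 0.41) and 0.48 ± 0.17 at 100 mM (95% interval 0.14 to 0.81, adjusted p = 0.535), and passed in neither case. Without DINP replicate 4 the fall at 25 mM and 48 h was called (-0.35). F12, which starts the contact system, lay between -0.08 and -0.0019 and was not called.

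**Figure D2:**
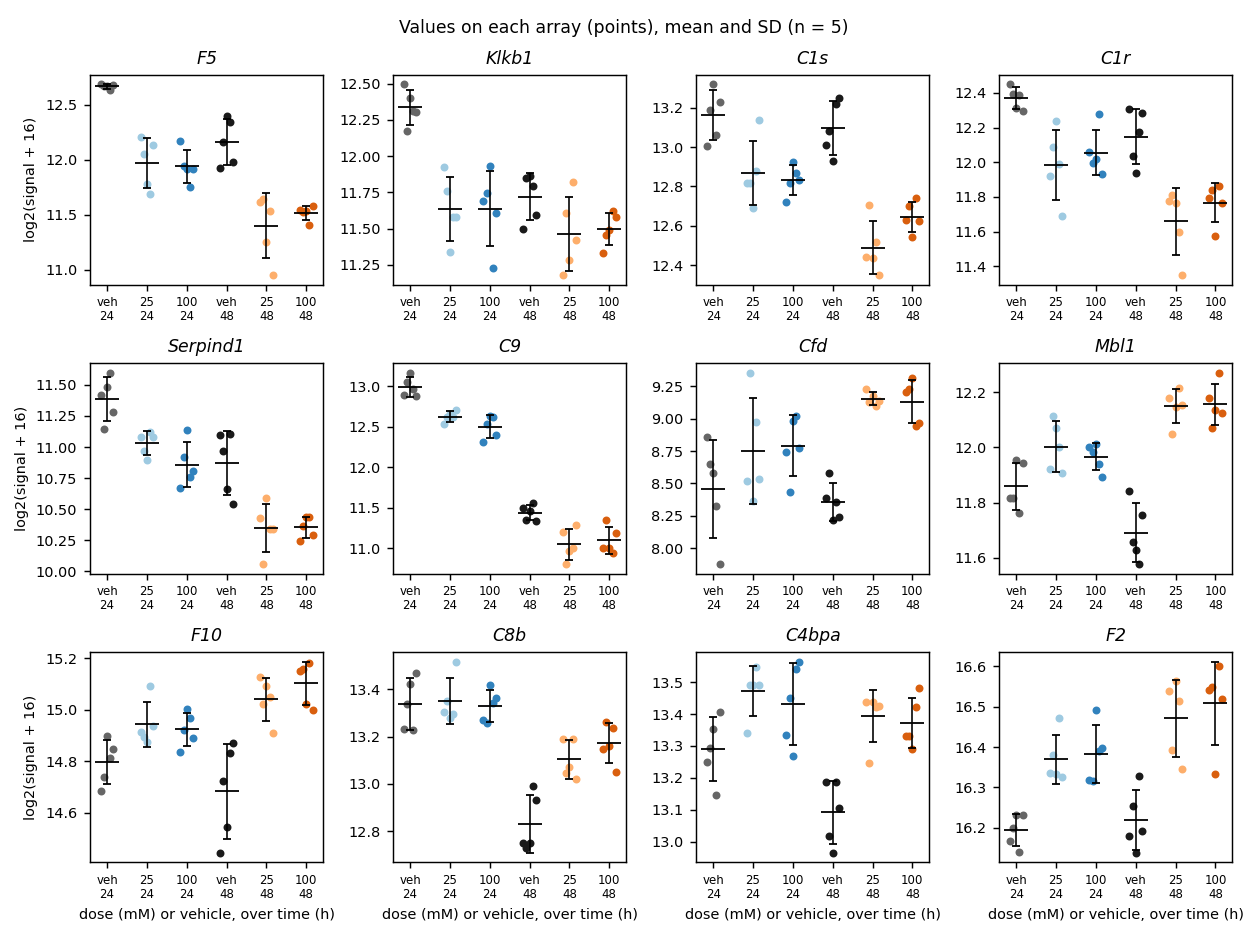
Log2(signal + 16) on each array (y axis) for 12 members in the 6 groups (x axis: vehicle or dose in mM above the time in h); points are arrays, bars the group mean and SD of 5, and each panel has its own scale. F5, Klkb1, C1s, C1r, Serpind1 and C9 are lower in treated cultures, and Cfd, Mbl1, F10, C8b, C4bpa and F2 are higher at 48 h; C9, Klkb1, F5, C8b, Serpind1 and C4bpa are also called lower in the 48 h than in the 24 h vehicle group.

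Of the vitamin K-dependent procoagulants, prothrombin and factor X were higher and factor IX was not called. F10 (probe set 1369852_at) had log2 signals of 14.69, 14.74, 14.90, 14.81 and 14.85 in the 24 h vehicle cultures, 14.92, 14.90, 14.87, 15.09 and 14.94 at 25 mM and 14.84, 14.92, 15.004, 14.97 and 14.89 at 100 mM. After 48 h F10 stood at 14.44, 14.72, 14.55, 14.83 and 14.87 in the vehicle cultures, 15.13, 15.02, 15.09, 15.05 and 14.91 at 25 mM and 15.15, 15.16, 15.02, 15.18 and 15.0003 at 100 mM. The 48 h treated arrays all lay above the vehicle arrays, whose own spread was wide, while the 24 h groups overlapped. F10 rose by 0.36 ± 0.06 at 25 mM (adjusted p = 0.000107) and 0.42 ± 0.06 at 100 mM (adjusted p = 1.2e-05) after 48 h, against 0.15 ± 0.06 and 0.13 ± 0.06 at 24 h (adjusted p = 0.142 and 0.221). F2 (prothrombin, probe set 1368442_at) had log2 signals of 16.17, 16.20, 16.23, 16.14 and 16.23 in the 24 h vehicle cultures, 16.34, 16.38, 16.33, 16.47 and 16.33 at 25 mM and 16.32, 16.32, 16.49, 16.39 and 16.40 at 100 mM. After 48 h F2 stood at 16.18, 16.25, 16.14, 16.33 and 16.19 in the vehicle cultures, 16.54, 16.39, 16.56, 16.51 and 16.35 at 25 mM and 16.54, 16.55, 16.33, 16.60 and 16.52 at 100 mM. In all 4 comparisons the treated arrays lay above the vehicle arrays without overlap, by small amounts. F2 rose by 0.18 ± 0.05, 0.19 ± 0.05, 0.25 ± 0.05 and 0.29 ± 0.05 in the order of the comparisons, with adjusted p = 0.0144, 0.0086, 0.000304 and 5.92e-05. The first of these calls was lost after quantile normalisation (0.10) and without DINP replicate 4 (0.15), adjusted p = 0.0564. F9 lay between -0.11 and 0.10 with no call, and quantile normalisation called it lower at 25 mM and 24 h (-0.19, adjusted p = 0.0355).

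Fibrinogen is built of 3 chains, encoded by Fga, Fgb and Fgg, which are neighbours in the RefSeq gene order. On the brightest probe sets Fga lay between -0.12 and -0.05, Fgg between -0.02 and 0.07, and Fgb between -0.16 and -0.05. For Fgb (probe set 1370511_at) the 48 h values were 16.52, 16.60, 16.47, 16.62 and 16.58 in the vehicle and 16.22, 16.45, 16.37, 16.47 and 16.47 at 100 mM, which overlap. The difference of -0.16 ± 0.05 was called (adjusted p = 0.0366), but not without vehicle replicates 2 (-0.15), 4 (-0.15) or 5 (-0.16) or DINP replicates 1 (-0.12) or 3 (-0.16), adjusted p from 0.0679 to 0.15, nor after median centring (adjusted p = 0.744). That call of Fgb was also lost with no filter, no variance trend or only the compared groups. The 2 probe sets of Fga disagreed in size. On the dimmer one, 1371258_at, the values were 14.41, 14.73, 14.74, 14.71 and 14.77 in the 24 h vehicle, 13.39, 13.39, 13.43, 13.57 and 13.52 in the 48 h vehicle, 13.02, 12.82, 12.98, 12.99 and 12.90 at 25 mM and 48 h and 12.73, 12.80, 13.01, 12.97 and 12.94 at 100 mM and 48 h. At 48 h the treated arrays did not overlap the vehicle. Its differences from the vehicle were -0.40 ± 0.08, -0.48 ± 0.08, -0.52 ± 0.08 and -0.57 ± 0.08, all called lower (adjusted p = 0.000327, 2.75e-05, 5.22e-06 and 1.34e-06). What sets the probe sets apart was not tested; with the median over probe sets in place of the brightest one, Fga was called lower in all 4 comparisons. Quantile normalisation also called the brighter Fga probe set lower in all 4, at -0.11, -0.19, -0.13 and -0.18. A second, dim probe set of Fgb (1371234_at) lay at 0.05 ± 0.32, -0.29 ± 0.32, -0.36 ± 0.32 and -1.12 ± 0.32, the last of them called (adjusted p = 0.0144).

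**Figure D3:**
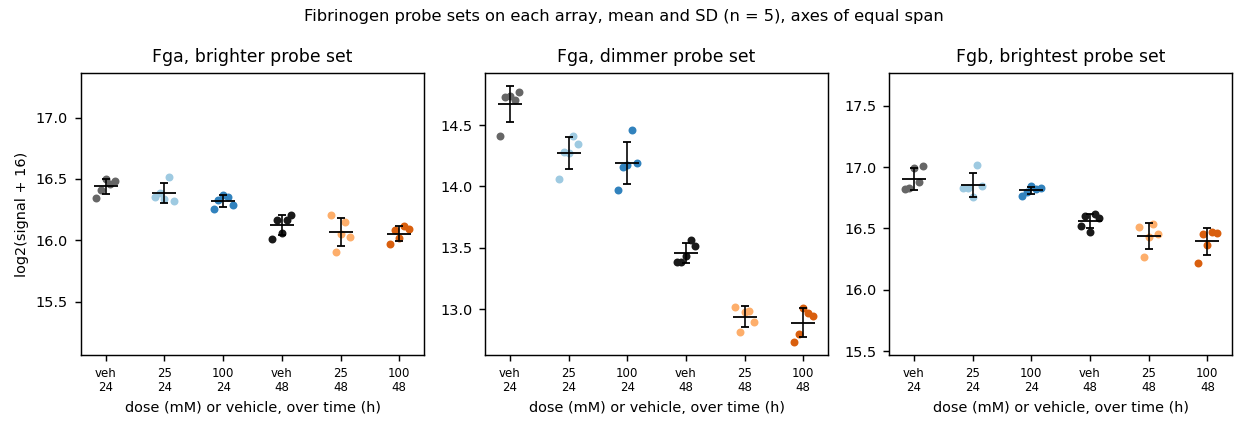
Log2(signal + 16) on each array for both probe sets of Fga and the brightest of Fgb (y axes of equal span, centred on each probe set; x axis: vehicle or dose in mM above the time in h); bars are the mean and SD of 5. In the vehicle the dimmer Fga probe set fell by 1.21 from 24 to 48 h, the brighter one by 0.32.

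Among the 4 anticoagulant genes, heparin cofactor II (Serpind1), a serpin that inhibits thrombin, was lower throughout. Serpind1 (probe set 1398260_a_at) had log2 signals of 11.42, 11.15, 11.48, 11.60 and 11.28 in the 24 h vehicle cultures, 11.08, 10.97, 10.89, 11.12 and 11.08 at 25 mM and 10.67, 10.92, 11.14, 10.76 and 10.81 at 100 mM. After 48 h Serpind1 stood at 11.10, 10.97, 10.66, 11.10 and 10.55 in the vehicle cultures, 10.43, 10.06, 10.59, 10.34 and 10.34 at 25 mM and 10.25, 10.36, 10.44, 10.44 and 10.30 at 100 mM. Treated and vehicle arrays were separate except at 25 mM and 48 h, where the highest treated value exceeded the lowest vehicle value. Serpind1 fell by 0.53 ± 0.11 at 100 mM and 24 h (adjusted p = 0.000855), by 0.52 ± 0.11 at 25 mM and 48 h (adjusted p = 0.00061) and by 0.52 ± 0.11 at 100 mM and 48 h (adjusted p = 0.000834). At 25 mM and 24 h it fell by 0.36 ± 0.11 (adjusted p = 0.025), which did not pass without vehicle replicates 1 (-0.35), 3 (-0.33) or 4 (-0.30) or DINP replicates 2 (-0.34) or 3 (-0.32), adjusted p from 0.0502 to 0.0913, or under either other scaling. Antithrombin (Serpinc1) was called higher at 25 mM and 48 h (0.18 ± 0.05, adjusted p = 0.0194), but not without vehicle replicate 3 (0.15) or DINP replicates 1 (0.15) or 3 (0.16), adjusted p from 0.0599 to 0.0699, nor after quantile normalisation (0.09) or median centring. A fit of only the compared groups ended that call too. Serpinc1 was also called at 25 mM and 24 h (0.15 ± 0.05) without vehicle replicate 5 or DINP replicate 3 or 5, with 0.17 to 0.18. Proteins C and S, encoded by Proc and Pros1, lay between -0.08 and -0.04 and between -0.14 and -0.12, with no call. After quantile normalisation Pros1 was called lower in 3 of the 4 comparisons, at -0.21 at 25 mM and 24 h, -0.20 at 25 mM and 48 h and -0.21 at 100 mM and 48 h (adjusted p = 0.0236, 0.025 and 0.0226).

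Of the fibrinolysis genes, plasminogen (Plg) and the carboxypeptidase Cpb2, which protects the clot, were not called in the 4 comparisons, with differences of -0.07 to 0.12 and -0.16 to 0.10. Quantile normalisation called Cpb2 lower at 24 h, at -0.24 with 25 mM and -0.24 with 100 mM (adjusted p = 0.00184 and 0.002). Without vehicle replicate 1 it was called at both doses at 24 h (-0.19 and -0.19), without DINP replicate 5 at 25 mM (-0.19) and without DINP replicate 3 at 100 mM (-0.20). The plasmin inhibitor α2-antiplasmin (Serpinf2, probe set 1377033_at) had 48 h values of 12.92, 12.71, 12.76, 12.95 and 13.21 in the vehicle and 12.75, 12.59, 12.59, 12.74 and 12.64 at 100 mM, which overlap. It was called at 100 mM and 48 h (-0.25 ± 0.08, adjusted p = 0.0418), but not without vehicle replicates 1 (-0.25), 4 (-0.24) or 5 (-0.17) or DINP replicates 2 (-0.23), 3 (-0.23) or 5 (-0.24), adjusted p from 0.061 to 0.162, or after median centring. That call was also lost with no filter, no variance trend, array weights or only the compared groups. At 25 mM and 48 h (-0.22 ± 0.08) Serpinf2 was called without vehicle replicate 2 or 3 or DINP replicate 3, with -0.26 to -0.28. With time in vehicle it was called without vehicle 48 h replicate 5 (-0.25).

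The 2 doses were not told apart for any member. At 24 h the difference of 100 from 25 mM ran from -0.20 (C6) to 0.12 (F9) and at 48 h from -0.29 (Masp1) to 0.16 (C1s). Here limma called 0 members (of all genes, 0.00943% higher and 0% lower at each time), with 0 and 4 members at an unadjusted p under 0.05. The 95% intervals of 26 members at 24 h and of 26 at 48 h lay within 0.3 of 0 on the log2 scale. The bounds of all 32 reached from -0.40 to 0.41 and from -0.53 to 0.34. The arrays of the doses did not overlap for 1 member at 24 h (C6, against 0.811% of all genes) and for 2 at 48 h (Cpb2 and Masp1, against 1.38%). Median centring moved the median of all genes in the 48 h comparison from -0.01 to 0.10. Nor did the effect of either dose differ between the times beyond the threshold for any member (0 of 32 called by limma, against 0.245% of all genes higher and 0.113% lower at 25 mM, 0.0849% and 0.0283% at 100 mM, and 6 members at each dose with an unadjusted p under 0.05). The smallest adjusted p-values were those of Mbl1, at 0.31 ± 0.08 (adjusted p = 0.142) and 0.36 ± 0.08 (adjusted p = 0.105). Mbl1 was called at 100 mM without vehicle 48 h replicate 1 (0.39, adjusted p = 0.0402) and with array weights (0.37, adjusted p = 0.0457). C8b followed, at 0.26 ± 0.09 and 0.35 ± 0.09 (adjusted p = 0.337 and 0.171). That many members passed the threshold at 48 h only is thus not shown to be a difference between the times.

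In the vehicle cultures the members' calls ran almost all downwards with time, C9, the fibrinogen chains Fga and Fgb, Klkb1 and F5 among them. Between 24 and 48 h, 16 of 32 members fell and 1 rose (50.0% and 3.12%), against 7.92% and 9.49% of all genes. Here too the shares of all genes were not matched to the members for signal level. The members' median difference was -0.21 against 0.03 for all genes. It was -0.22 against 0.03 after quantile normalisation and -0.20 against 0.04 after median centring. Quantile normalisation gave 19 lower and 1 higher (18.9% of all genes in either direction), and median centring 12 and 0 (12.9% of all genes). The 24 and 48 h arrays did not overlap for 13 of 32 members, against 12.6% of all genes. Days in culture and hours in vehicle cannot be told apart here.

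All 5 terminal pore genes fell with time. C9 was 2.93-fold lower at 48 h (-1.55 ± 0.09, adjusted p = 1.84e-14), the largest change of any member in any comparison here, with the 5 vehicle arrays at 12.88 to 13.16 after 24 h and 11.34 to 11.56 after 48 h. C6 fell by 0.61 ± 0.10, C8b by 0.51 ± 0.06, C8g by 0.45 ± 0.06 and C8a by 0.34 ± 0.07 (adjusted p = 7.66e-05, 6.69e-07, 2.7e-06 and 0.00162). The hubs C5 and C3 fell by 0.51 ± 0.13 and 0.42 ± 0.09 (adjusted p = 0.00457 and 0.00167). None of the 5 measured starters was called, with C1s at -0.06, C1r at -0.22 and Mbl1 at -0.17 ± 0.06 (adjusted p = 0.0562). Mbl1 was called lower after quantile normalisation (-0.19, adjusted p = 0.0336), with the 60th percentile filter, array weights or the median over probe sets, and without vehicle 48 h replicate 1 (-0.20) or vehicle 24 h replicate 4 (-0.19).

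On the coagulation side Klkb1 fell by 0.62 ± 0.12 (adjusted p = 0.00036), Serpind1 by 0.51 ± 0.11 (adjusted p = 0.00133) and F5 by 0.51 ± 0.11 (adjusted p = 0.00165). Of the fibrinogen chains, Fgb fell by 0.35 ± 0.05 (adjusted p = 3.21e-05), Fga by 0.32 ± 0.05 on its brighter and by 1.21 ± 0.08 on its dimmer probe set, while Fgg lay at -0.14 ± 0.06 and was not called. The median over its probe sets ended the call of Fgb (-0.35, adjusted p = 0.121), and quantile normalisation (-0.16) or leaving out vehicle 48 h replicate 5 (-0.17) called Fgg lower. Cpb2 and Serpinc1 fell by 0.26 ± 0.06 and 0.25 ± 0.05 (adjusted p = 0.00251 and 0.00159), and after median centring neither passed (adjusted p = 0.0677 and 0.055). Plg (-0.27 ± 0.09, adjusted p = 0.0307) lost its call without vehicle 24 h replicates 2 (-0.26), 3 (-0.27), 4 (-0.25) or 5 (-0.23) or vehicle 48 h replicates 1 (-0.21) or 3 (-0.26), adjusted p from 0.0552 to 0.124. C4bpa (-0.20 ± 0.06, adjusted p = 0.0286) lost its call without vehicle 24 h replicates 2 (-0.20), 3 (-0.18) or 5 (-0.17) or vehicle 48 h replicates 2 (-0.18) or 3 (-0.17), adjusted p from 0.0507 to 0.0888. F12 was the member that rose (0.20 ± 0.06, adjusted p = 0.0222), which did not pass without vehicle 24 h replicates 3 (0.18) or 4 (0.19) or vehicle 48 h replicate 5 (0.14), adjusted p from 0.0591 to 0.116. Median centring ended the calls of Plg, C4bpa and F12 as well. So did no filter for Plg, no variance trend for Plg and C4bpa, and only the compared groups for C4bpa and F12. The vitamin K-dependent F2, F9 and F10 lay between -0.11 and 0.02 and were not called.

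**Figure D4:**
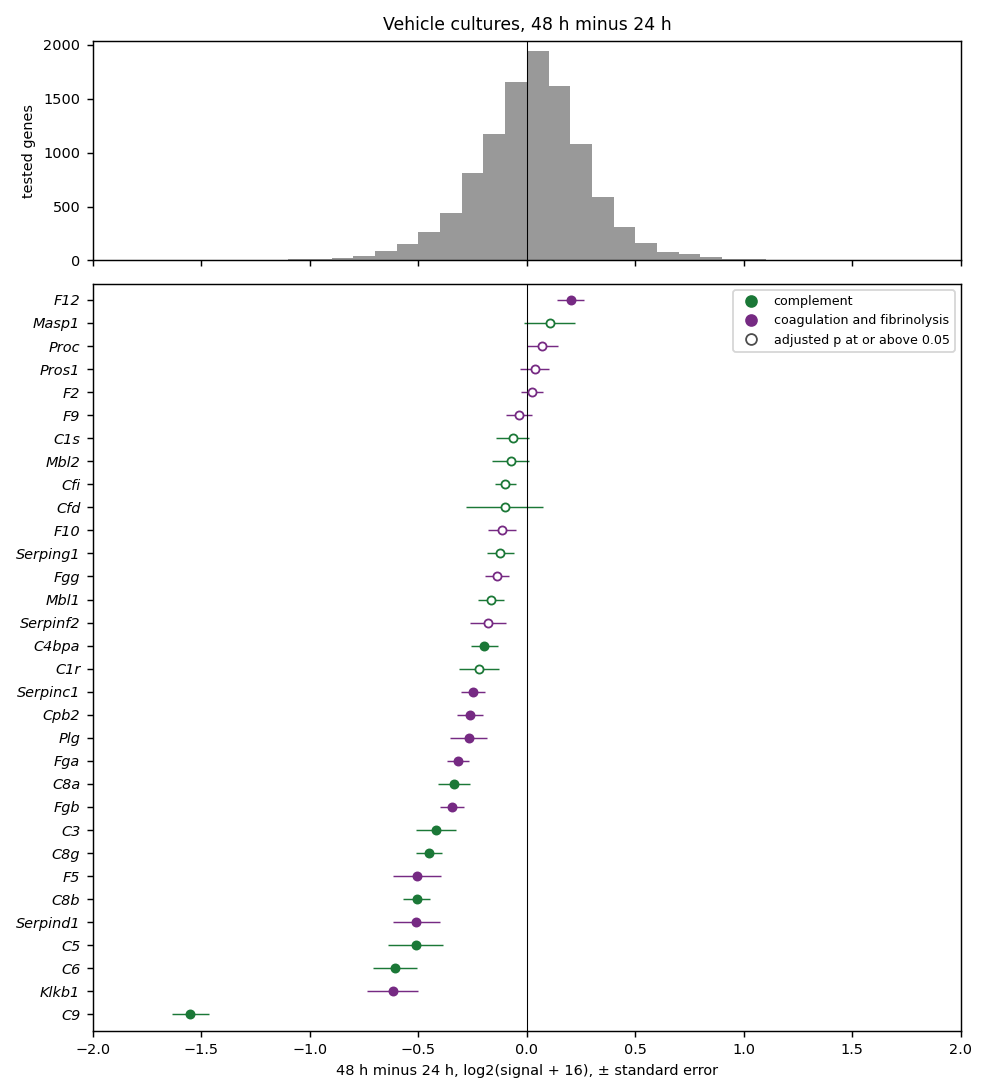
Log2 difference of the 48 h from the 24 h vehicle cultures. The upper panel counts all 10604 tested genes in bins of 0.1, and the lower panel shows the 32 members sorted by difference, with limma's standard error as bars; filled points have an adjusted p under 0.05. Most members lie left of 0, C9 farthest, and F12 is the one filled point to the right.

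The 48 h vehicle arrays serve in both this comparison and those of the doses at 48 h, so the values stand side by side here without a test of their relation. C8b, C8g and C4bpa lay at -0.51, -0.45 and -0.20 from 24 to 48 h in the vehicle and at 0.27, 0.25 and 0.30 with 25 mM against the vehicle at 48 h. F5, C9 and Serpind1 lay at -0.51, -1.55 and -0.51 with time and at -0.76, -0.39 and -0.52 with 25 mM, and C1s lay at -0.06 with time and -0.61 with 25 mM. The group means of C9 were 12.99 ± 0.12, 12.62 ± 0.06 and 12.50 ± 0.14 (SD, n = 5) at 24 h for vehicle, 25 and 100 mM, and 11.44 ± 0.10, 11.05 ± 0.19 and 11.10 ± 0.17 at 48 h. Those of C8b were 13.34 ± 0.11, 13.35 ± 0.10 and 13.33 ± 0.07 at 24 h and 12.83 ± 0.12, 13.10 ± 0.08 and 13.17 ± 0.08 at 48 h.

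Marker lists of other cells stood beside these changes as follows. The summed signal of the 10 matched Kupffer cell markers was 4897 to 5629 on the 24 h vehicle arrays and 3211 to 4430 on the 48 h ones, against 4141 to 4796 and 3968 to 4909 at 25 and 100 mM after 48 h. In the vehicle cultures Cd5l differed by -1.22 ± 0.19 (adjusted p = 3.67e-05), C1qb by -0.92 ± 0.24 (adjusted p = 0.00706) and C1qa by -0.46 ± 0.14 (adjusted p = 0.0248) between the times. Of the 7 tested Kupffer markers, 6 had negative differences with time in vehicle and 1 a positive one, and 3 were called lower. At 48 h Cd5l differed from the vehicle by 0.78 ± 0.19 at 25 mM (adjusted p = 0.00338) and 0.76 ± 0.19 at 100 mM (adjusted p = 0.00566). At each dose after 48 h, 5 of the 7 had positive differences and 2 negative ones, and 2 were called higher. The Kupffer ranges of the 2 vehicle groups do not overlap. The summed signal of the 8 endothelial markers was 3061 to 4373 and 2676 to 3788 in the 24 and 48 h vehicle cultures, that of the 10 stellate cell markers 3760 to 4832 and 3931 to 4863, and that of the 5 bile duct cell markers, of which Krt19 and Epcam passed the filter, 8573 to 10685 and 11957 to 14608. After 48 h the endothelial sum was 3517 to 4076 at 25 mM and 3128 to 3915 at 100 mM, and the bile duct sum 8971 to 12018 and 10723 to 12768. All 5 tested endothelial markers had negative differences with time in vehicle (median -0.56), and Fcgr2b (-0.56 ± 0.13) and Lyve1 (-0.67 ± 0.19) were called. Epcam rose with time in vehicle (0.47 ± 0.07) and was called lower at 48 h with 25 mM (-0.35 ± 0.07) and 100 mM (-0.22 ± 0.07). The 9 hepatocyte markers summed to 648361 to 760475 and 625522 to 745471 in the vehicle groups, ranges that overlap. Single ones were called with DINP in both directions: the lectin receptor gene Asgr1 rose in all 4 comparisons (0.49 to 0.67), the tyrosine aminotransferase gene Tat fell in all 4 (-0.92 to -0.80), Ahsg was lower at 48 h (-0.38 ± 0.05 and -0.26 ± 0.05) and Apob higher at 25 mM and 48 h (0.30 ± 0.10), after a difference of -0.73 ± 0.10 with time in vehicle, also called. Cd5l, Lyve1 and Apob have 2 probe sets each, and only the brightest tested one is given here. The part of other cells in the members' differences was not tested.

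The other genes of the pathways, 43 in a list chosen with earlier results of these data known, are given by their counts beside those of all genes. Of the 28 tested, 2 were called higher and 3 lower with 25 mM for 24 h, 2 and 2 at 100 mM and 24 h, 2 and 3 at 25 mM and 48 h, and 3 and 1 at 100 mM and 48 h, with medians between -0.01 and 0.05. These are 7.14%, 7.14%, 7.14% and 10.7% higher and 10.7%, 7.14%, 10.7% and 3.57% lower, against 7.87% and 7.84%, 7.54% and 7.02%, 9.78% and 12.1%, and 8.69% and 9.20% of all genes, shares within a few percentage points of those of all genes or below them. Between 24 and 48 h in the vehicle, 7 rose and 10 fell (25.0% and 35.7%, against 9.49% and 7.92% of all genes, median -0.16). The largest called rises with DINP were those of C1qb, a chain of the C1q recognition molecule that macrophages make (0.94 ± 0.24 at 100 mM and 48 h, adjusted p = 0.00473), of the tissue plasminogen activator Plat (0.59 ± 0.16 at 25 mM and 24 h, adjusted p = 0.0088) and of C1qc (0.37 ± 0.12, adjusted p = 0.038, at 25 mM and 24 h). The largest called falls were those of the histidine-rich glycoprotein Hrg, which binds plasminogen and heparin (-0.53 ± 0.07, adjusted p = 2.03e-06, at 25 mM and 24 h, and lower in all 4 comparisons), of C-reactive protein, Crp (-0.38 ± 0.13, adjusted p = 0.0468, at 25 mM and 24 h only) and of Cr1l, a membrane complement regulator (-0.19 ± 0.05, adjusted p = 0.00653, at 25 mM and 48 h). Tissue factor (F3), which starts coagulation, lay between -0.38 and 0.04, and the enzymes of the vitamin K cycle, Vkorc1 and Ggcx, between -0.11 and -0.01 and between 0.09 and 0.13, with no call. With time in vehicle Vkorc1 fell by 0.34 ± 0.06 (adjusted p = 5.17e-05). Singled out after their values were seen, the β chain gene of the C4b-binding protein, C4bpb, fell by 0.82 ± 0.11 (adjusted p = 4.29e-06) with time, where Plat rose by 1.11 ± 0.16 (adjusted p = 8.33e-06) and the protein C receptor gene Procr by 1.06 ± 0.10 (adjusted p = 7.37e-09).

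Of 18 genes of transcription factors, receptors and signalling proteins, listed as possible regulators of the members, 16 were tested. With 25 mM for 24 h 2 were called higher and 5 lower, at 100 mM and 24 h 2 and 4, at 25 mM and 48 h 4 and 5, and at 100 mM and 48 h 3 and 5. Those called higher are 12.5%, 12.5%, 25.0% and 18.8% of the 16, against 7.87%, 7.54%, 9.78% and 8.69% of all genes. Those called lower are 31.2%, 25.0%, 31.2% and 31.2%, against 7.84%, 7.02%, 12.1% and 9.20%. The bile acid receptor gene Nr1h4 rose in all 4 (0.75 ± 0.09, 0.59 ± 0.09, 0.71 ± 0.09 and 0.57 ± 0.09), with adjusted p = 2.26e-05 at its weakest, at 100 mM and 48 h. Cebpb, a C/EBP factor of the acute phase, rose in all 4 by 0.32 to 0.45, and Cebpa, the C/EBP factor of resting hepatocytes, rose at 48 h (0.70 ± 0.09, adjusted p = 3.63e-07, and 0.50 ± 0.09, adjusted p = 9.41e-05). The interleukin-6 receptor gene Il6r fell in all 4 comparisons, by up to 0.71 ± 0.12 (adjusted p = 4.53e-05, at 100 mM and 24 h). The liver factor gene Onecut1 fell by 0.91 ± 0.22 (adjusted p = 0.00439) at 25 mM and 24 h, and Socs3, a feedback inhibitor of interleukin-6 signalling, by 0.87 ± 0.25 (adjusted p = 0.0145) at 100 mM and 48 h. Hnf4a was called higher at 25 mM and 48 h (0.25 ± 0.06, adjusted p = 0.00387) and fell by 0.31 ± 0.06 with time in vehicle (adjusted p = 0.000707). Ppara lay under the filter on dim signal and was not tested. The calls of these pathway and regulator genes were fitted under the main setting alone. Cebpa has 5 probe sets of its own, Hnf4a 3, and Onecut1 and Cr1l 2 each, and only the brightest tested one is given here. Whether any of these differences bears on those of the members was not tested.

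**Figure D5:**
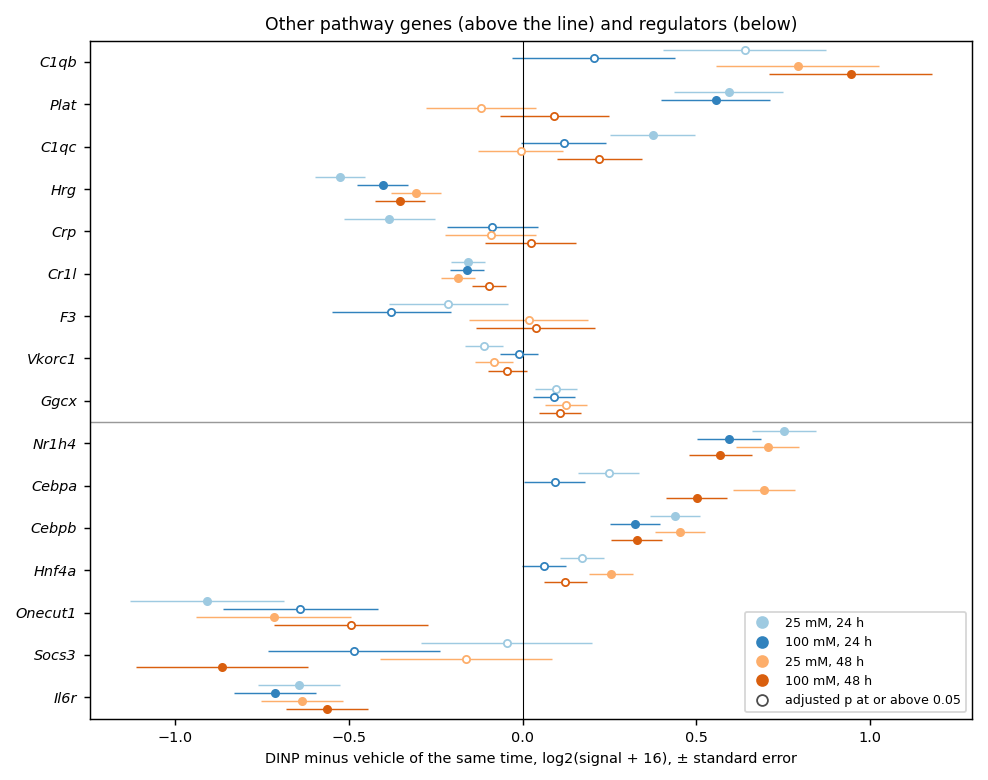
Log2 difference from the vehicle of the same time (x axis) for 9 other pathway genes, above the line, and 7 regulators, below it, with limma's standard error as bars and a colour for each dose and time; filled points have an adjusted p under 0.05. Nr1h4 and Cebpb lie to the right and Hrg and Il6r to the left in all 4 comparisons, and Cebpa is filled at 48 h only.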

How the data were processed

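Labelled cRNA of 30 cultures was hybridised to Affymetrix rat arrays, per the labels' protocols. The authors deposited MAS5 signal intensities on a linear scale, as the submitters' processing notes name the method; its version is not given in the sources used here. The 2% trimmed mean of the deposited intensities was 1500.65 to 1500.76 for all 30 arrays, which is a scaling of each array to a common mean. The table held 31099 probe sets, 57 of them controls; 20826 had 1 gene symbol, 436 several and 9780 none, and 20758 symbols were updated through the Entrez ID (RefSeq table, assembly GRCr8). From these, log2(signal + 16) was computed, which understates changes of dim genes. The 18625 probe sets at or above the 40th percentile of the mean were fitted with limma 3.58.1 in R 4.3.3 (6 group means, 24 residual degrees of freedom, empirical Bayes with a trend), with Benjamini-Hochberg adjustment in each of 9 comparisons. Array values are given for at most 12 members called without overlap, by size, and the largest of each role; from other lists the 3 largest called rises and falls and a few fixed genes are named. Members, lists and rules were chosen with earlier results of these data known. Simulated data of the 25 mM, 24 h comparison had 200 of 18625 probe sets changed. Of these, 45% of those changed by 0.5 and 80% of those changed by 1 (log2) were recovered. Alternatives were other scalings, pseudocounts, filters and fits, and leaving out each array.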

Additional observations from a re-analysis of the deposited data

Results flagged for a closer look

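For the 12 members given on every array and for Fgb and Serpinf2, each of the 84 groups of 5 was searched for an array far from the other 4, by the gap to its nearest neighbour over the group's range. Chance flags about 1 group in 20, or 4.2 of 84, and 2 were found, both of C4bpa. At 25 mM and 24 h replicate 1 lay at 13.34 (log2 signal), with the other 4 between 13.49 and 13.55. At 25 mM and 48 h replicate 2 lay at 13.25, with the other 4 between 13.42 and 13.44.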

How the results depend on the processing

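Of 62 calls of a member in a comparison, 40 were kept under each setting run for them, 22 were lost under at least 1, and 0 changed sign. The settings were up to 11 others (10 for Cfd, which the 60th percentile filter left out) and, for each call, the 10 fits without 1 array of the groups compared. Median centring lost 19, only the compared groups 7, no variance trend 6, quantile normalisation and no filter 5 each, and array weights, the median over probe sets (Fgb with time in vehicle) and the replicate block 1 each; the cause was not tested. For members higher at 25 mM and 24 h, 2 became 0 after quantile normalisation, 1 each after median centring, with no filter, with no variance trend and with only the compared groups, 4 with array weights, and 0 to 3 without 1 array (0 without DINP 25 mM 24 h replicate 4, and 1 without DINP replicate 2 or vehicle replicate 1 or 4). Members lower at 25 mM and 24 h went from 6 to 10 (quantile normalisation) or 3 (median centring), those lower at 100 mM and 24 h from 7 to 4 (median centring), those lower at 25 mM and 48 h from 6 to 11 (quantile normalisation), and those lower at 100 mM and 48 h from 8 to 13 (quantile normalisation) or 3 (median centring). The 1 member that rose with time in vehicle was not called (0) after median centring or with only the compared groups, and 0 to 1 were without 1 array (0 without vehicle 24 h replicate 3 or 4 or vehicle 48 h replicate 5). The difference between times at 100 mM had 0 members higher, 1 with array weights, and 0 to 1 without 1 array (1 without vehicle 48 h replicate 1). The labels give no replicate numbers. Arrays of one round of 6 array numbers showed little shared deviation (correlations of deviations between -0.06 and 0.10), and the main fit did not pair them. Such low values cannot exclude a pairing of the samples by round. With the round as a replicate block only the call of C3 at 100 mM and 24 h was lost (adjusted p = 0.0518). With 5 arrays a group, 45% of probe sets changed by 0.5 on the log2 scale were recovered on simulated data, and smaller changes were not simulated. The 200 changed probe sets were drawn from all 18625 tested, so the share recovered need not hold for the members. In the data 1090 probe sets were called higher and 1395 lower at 25 mM and 24 h. The adjustment is stricter where fewer probe sets change, so the share recovered need not hold for these data either. An uncalled member is not shown to be unaltered.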
